A study of Mus musculus with 38 samples.

Results

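The genes followed here, 10 that steer T cell development, were read in thymus of Dnmt3b hypomorphic mouse embryos, with embryonic fibroblasts as the background: Tcf7, Lef1, Gata3, Bcl11b, Runx1, Runx3, Tox, Ikzf1, Tcf12 and Id3. They were chosen by name, as transcription factors of thymocyte commitment and selection, and all 10 of 10 were measured, among 18174 named genes tested in thymus and 18258 in fibroblasts. Bcl11b and Runx1 had 2 probes and the other 8 genes had 1 probe each. A probe that carries the symbol Rit1, an older synonym of Bcl11b and also the current name of another gene, was not taken as Bcl11b.

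The hypomorphic group in thymus was 5 embryos at 18.5 days post coitum, on 18 arrays, and the hypomorphic group in fibroblasts was 5 other embryos at 12.5 days post coitum, on 20 arrays. The enzyme Dnmt3b places new methyl groups on DNA. A hypomorphic allele lowers a gene's function without removing it. Every array set 1 embryo against pooled RNA from 5 wild-type samples of that tissue and age, and all animals were hybrids of 129SvJae and C57BL/6. The thymus labels give the genotype as m3/m24, except on 3 arrays (1 of embryo 1 and 2 of embryo 3), and the fibroblast labels give a number only. Thymus embryo 5 had 1 array in each dye orientation and every other embryo had 2. The values are log2 ratios of hypomorph over pool, so they carry no level of any gene, and neither tissue could be checked against its markers by level. The direction is not stated by the submitters and is given as likely. Its basis is Eif2s3y, a gene of the Y chromosome, which had the same sign in both dye orientations in 8 of 10 embryos and lay as far as 12.9-fold below the pool but at most 2-fold above it. A male embryo can exceed a pool of 5 that holds 1 male by about 5-fold at most, if all contribute equally. With such a pool, ratios of pool over hypomorph would not give a value of that size. A pool without a male has no such limit, and the sex of the pooled samples was not known here. If the direction were turned, every sign below would turn with it, and highest would read lowest, while sizes, spans and p-values would stay. Whole thymus is a mixture, and in it fewer cells of a type and less RNA per cell cannot be told apart.

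Of the 25344 spots of an array, between 147 and 423 had no value. Dnmt3b itself, at its single probe, was at -0.08 ± 0.15 in thymus and 0.11 ± 0.11 in fibroblasts (mean log2 ratio, SD, n = 5 embryos each), but the sources used here do not place that probe relative to the hypomorphic change. In fibroblasts 3 arrays (arrays 2 and 4 of embryo 1 and array 4 of embryo 4) correlated below 0 with the other arrays of their own embryo. The fibroblast tests against the pool and between embryos were repeated without them, and the tissue difference was not. In thymus both arrays of embryo 5 (-0.067 each) and arrays 1 and 2 of embryo 1 (-0.037 and -0.005) did so by a small margin. Array medians as deposited ran from -0.89 to 1.14, so each array was centred on its own median.

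In the thymus, progenitors from bone marrow or fetal liver meet Notch ligands, lose the option of other blood lineages and rearrange their T cell receptor genes. Notch signals induce Tcf7, and Tcf7 with Gata3 then raises Bcl11b, whose protein closes the way to other fates. The cells pass through a double negative stage without CD4 and CD8 and a double positive stage with both, and those that are selected become single positive T cells under the guidance of Tox, Runx3, Gata3, Lef1 and Id3.

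Against the pool, no factor of the set passed the test in thymus, while several varied widely between embryos. Of the 10 genes 0 passed the test over all features (limma, embryos as replicates, Benjamini-Hochberg adjusted p under 0.05), where 0.0228% of all 21949 features passed, and 0 had an unadjusted p under 0.05, where 7.49% of all features did. The unadjusted result did not hold under every alternative. With embryo weights the unadjusted p of limma was 0.0143 for Id3, 0.0361 for Gata3 and 0.0431 for Tox. Without embryo 3 it was 0.0124 for Lef1, and for Id3 it was 0.0449 without embryo 2 and 0.0426 without embryo 4. None of these passed after adjustment. The mean log2 ratios lay between -0.14 for Id3 and 0.24 for Lef1, with a median of 0.04 over the 10 genes and 0.01 over all features. In fibroblasts 0 of 10 passed as well (0.00454% of 22025 features), and 1 of 10, Gata3, had an unadjusted p under 0.05 (16% of all features). Each pool is 1 control sample here, and variation among wild-type embryos does not enter these tests. The 95% intervals of the thymus means ran from the narrowest, -0.08 to 0.13 for Runx1, to the widest, -0.54 to 0.45 for Tox.

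**Figure D1:**
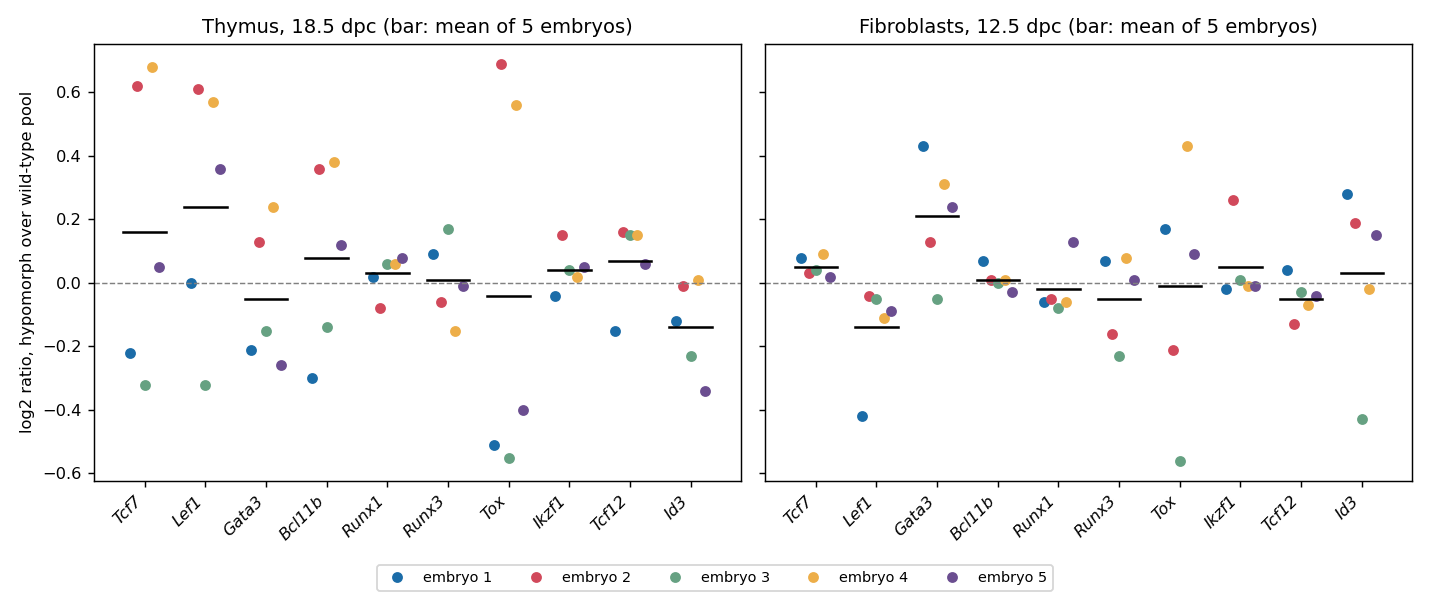
Log2 ratio of hypomorph over wild-type pool (vertical axis) for the 10 factors in thymus (left) and fibroblasts (right); each point is 1 embryo and each bar the mean of 5 embryos. In thymus, embryos 2 and 4 lie highest for Tcf7, Lef1, Gata3, Bcl11b, Tox and Id3, and in fibroblasts Tcf7 and Bcl11b lie between -0.03 and 0.09.

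Tcf7 encodes TCF1, an HMG-box protein that binds DNA with beta-catenin or Groucho partners and is among the first factors induced by Notch in the thymus. Its log2 ratio was -0.22, 0.62, -0.32, 0.68 and 0.05 in thymus embryos 1 to 5. Embryos 2 and 4 lay above the pool by more than 0.6, embryos 1 and 3 lay below it, and embryo 5 lay near it. The mean was 0.16 ± 0.46 (SD, n = 5), a 1.12-fold ratio, with a limma adjusted p of 0.923. In fibroblasts the 5 embryos lay between 0.02 and 0.09, all above the pool (as in 7.8% of all fibroblast features), with a mean of 0.05 ± 0.03 (SD, n = 5). The span from the lowest to the highest embryo was 1.99-fold in thymus and 1.05-fold in fibroblasts.

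Lef1, the HMG-box relative of TCF1 that overlaps with it in the passage to the double positive stage, was at 0.00, 0.61, -0.32, 0.57 and 0.36 in thymus embryos 1 to 5. Its mean of 0.24 ± 0.40 (SD, n = 5; 1.18-fold; limma adjusted p = 0.840) was the highest of the 10 factors. In fibroblasts all 5 embryos lay below the pool, at -0.42, -0.04, -0.05, -0.11 and -0.09, with a mean of -0.14 ± 0.16 (SD, n = 5; limma adjusted p = 0.349). The same sign below the pool in all 5 embryos was seen in 9.01% of all fibroblast features. This fibroblast mean combines opposite readings: all 10 arrays with the hypomorph in Cy5 lay below the pool (-1.18 to -0.34) and all 10 arrays with it in Cy3 lay above it (0.23 to 0.73).

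Gata3, a zinc finger factor needed from early T progenitors onward and for CD4 lineage cells, was at -0.21, 0.13, -0.15, 0.24 and -0.26 in thymus embryos 1 to 5 (mean -0.05 ± 0.22, SD, n = 5; limma adjusted p = 0.941). Embryos 2 and 4 lay above the pool and the others below it. In fibroblasts it was at 0.43, 0.13, -0.05, 0.31 and 0.24, above the pool in 4 of 5 embryos, with a mean of 0.21 ± 0.18 (SD, n = 5; 1.16-fold). The unadjusted p was 0.0267 and the adjusted p of limma 0.259, so the difference did not pass, and on leaving out each embryo the unadjusted p ran from 0.00536 to 0.0838. The mean was nearly the same in both dye orientations, at 0.22 over Cy5 arrays and 0.21 over Cy3 arrays, and it was 0.26 without the 3 fibroblast arrays named above. Single embryos were less alike. The orientations parted most in embryo 1 (0.66 in Cy5 and 0.21 in Cy3) and embryo 4 (-0.01 and 0.64). In 1 orientation alone the unadjusted p of limma was 0.109 (Cy5) and 0.0806 (Cy3).

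Bcl11b, the zinc finger repressor that fixes T lineage identity, was at -0.30, 0.36, -0.14, 0.38 and 0.12 in thymus embryos 1 to 5, averaged over its probes (mean 0.08 ± 0.30, SD, n = 5; limma adjusted p = 0.930). Its probes did not read alike in every embryo. Probe 1 gave -0.34, 0.08, -0.11, 0.20 and -0.22, and probe 2 gave -0.26, 0.64, -0.17, 0.57 and 0.46. Embryos 2 and 4 lay above embryos 1 and 3 at both, while embryo 5 lay below the pool at probe 1 and above it at probe 2. In fibroblasts the embryos spanned only -0.03 to 0.07.

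The promoter windows of Lef1, Gata3 and Bcl11b are shown as those of factors whose ratio differed between thymus embryos, in the test given further on, and that of Ikzf1 as one of a factor whose embryo values spanned only 0.19. Each window runs from 250 bases before to 50 bases after a RefSeq start (build GRCm38.p6), 5′ to 3′ on the gene's strand, with CpG sites, the sites that Dnmt3b can methylate, in capitals. Where the RefSeq table lists several windows of a gene the most upstream one was taken, and the annotated genes Gata3, Bcl11b and Ikzf1 reach further upstream than the start used here. The windows are chr3:131110047-131110346 on the plus strand for Lef1, chr2:9878551-9878850 on the minus strand for Gata3, chr12:108003365-108003664 on the minus strand for Bcl11b and chr11:11685675-11685974 on the plus strand for Ikzf1.
Lef1: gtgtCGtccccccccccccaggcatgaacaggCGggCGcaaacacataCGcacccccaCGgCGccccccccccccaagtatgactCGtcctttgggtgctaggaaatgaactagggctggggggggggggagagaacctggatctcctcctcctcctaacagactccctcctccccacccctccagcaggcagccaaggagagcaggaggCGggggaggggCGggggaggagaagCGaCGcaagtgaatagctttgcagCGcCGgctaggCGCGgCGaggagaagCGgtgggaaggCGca
Gata3: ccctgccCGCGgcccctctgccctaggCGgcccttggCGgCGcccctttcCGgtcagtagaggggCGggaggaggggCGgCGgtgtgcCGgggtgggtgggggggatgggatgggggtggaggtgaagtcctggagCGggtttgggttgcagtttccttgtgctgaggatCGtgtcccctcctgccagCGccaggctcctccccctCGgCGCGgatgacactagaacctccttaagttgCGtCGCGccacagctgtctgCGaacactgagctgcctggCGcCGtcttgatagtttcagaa
Bcl11b: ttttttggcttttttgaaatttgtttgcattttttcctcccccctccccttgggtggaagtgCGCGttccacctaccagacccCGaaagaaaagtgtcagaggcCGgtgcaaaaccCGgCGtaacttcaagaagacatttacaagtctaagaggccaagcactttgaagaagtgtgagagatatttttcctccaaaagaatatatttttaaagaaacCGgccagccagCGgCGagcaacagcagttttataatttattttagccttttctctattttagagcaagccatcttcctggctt
Ikzf1: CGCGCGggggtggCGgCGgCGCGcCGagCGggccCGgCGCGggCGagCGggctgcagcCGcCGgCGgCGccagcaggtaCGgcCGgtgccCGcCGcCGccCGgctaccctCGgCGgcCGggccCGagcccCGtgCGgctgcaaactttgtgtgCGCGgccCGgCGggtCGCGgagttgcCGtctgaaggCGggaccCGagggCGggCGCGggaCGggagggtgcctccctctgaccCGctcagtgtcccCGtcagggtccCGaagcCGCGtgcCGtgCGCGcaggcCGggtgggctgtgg

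The Ikzf1 window held 52 CpG sites, the Gata3 window 22, the Lef1 window 18 and the Bcl11b window 9, against a median of 7 over all 32851 windows of the table. These counts depend on the start taken: the 2 windows listed for Ikzf1 held from 2 to 52 CpG sites, the 4 of Lef1 from 5 to 21, the 2 of Runx1 from 2 to 35, the 2 of Runx3 from 8 to 45 and the 3 of Tcf12 from 0 to 45. Methylation was not measured in these samples, and no relation of these sites to the ratios was tested. Windows were listed for 9 of 10 factors (Tox had none). The Tcf7 window, with 45 CpG sites, is not printed: it holds an ATG before the listed start with 71 codons open to the window's end, so it may lie partly in coding sequence. The Tcf12 window also holds an ATG before the listed start, with 99 codons open to its end, and whether that stretch is coding was not checked. Both windows are kept in the letter counts that follow. The letters CTTTGA, the core bound by TCF1 and LEF1, were found on either strand in the Bcl11b window only (1 of 9, against 16% of all windows). The GATA letters AGATAA were in 0 of 9 (11.2% of all windows). The RUNX letters TGTGGT were in the Runx1 and Runx3 windows (2 of 9, 16.8% of all), and the E protein letters CAGCTG in those of Tcf7, Gata3 and Tcf12 (3 of 9, 16.3% of all). In the Tcf7 and Tcf12 windows the E protein letters lie after the ATG, within the open codons. The Ikaros letters TGGGAA were in the Lef1 and Runx3 windows (2 of 9, 25.6% of all).

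Runx1 and Runx3 encode DNA-binding partners of Cbfb; Runx1 acts in early thymocytes and Runx3 in CD8 lineage cells. Runx1 lay between -0.08 and 0.08 in the thymus embryos (mean 0.03 ± 0.06, SD, n = 5). Its probes had opposite signs in embryos 1 to 4, with 0.19, -0.22, 0.28, -0.06 and 0.11 at probe 1 and -0.16, 0.07, -0.17, 0.19 and 0.05 at probe 2. Their mean thus lay nearer the pool than most single probe values. Whether either probe differed between embryos was not tested, and repeat thymus arrays of Runx1 in 1 embryo and orientation lay up to 0.33 apart. In fibroblasts Runx1 lay between -0.08 and 0.13. Runx3 was at 0.09, -0.06, 0.17, -0.15 and -0.01 in thymus embryos 1 to 5, and it was the factor for which embryos 2 and 4 lay lowest. Its mean was 0.01 ± 0.12 in thymus and -0.05 ± 0.14 in fibroblasts (SD, n = 5 each).

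Tox, an HMG-box factor that thymocytes need to complete positive selection into the CD4 lineage, had the widest span of the 10. It was at -0.51, 0.69, -0.55, 0.56 and -0.40 in thymus embryos 1 to 5. Embryos 2 and 4 lay well above the pool and embryos 1, 3 and 5 well below it, a 2.36-fold span, and the mean of -0.04 ± 0.61 (SD, n = 5; limma adjusted p = 0.979) describes none of them. The SD was in the top 1.56% of all thymus features. In fibroblasts Tox was at 0.17, -0.21, -0.56, 0.43 and 0.09 (mean -0.01 ± 0.38, SD, n = 5), again a wide span, with embryo 3 lowest and embryo 4 highest.

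Ikzf1 encodes Ikaros, a zinc finger factor of all lymphoid lineages, and Tcf12 encodes HEB, the E protein that drives receptor gene rearrangement in thymocytes. Ikzf1 was at -0.04, 0.15, 0.04, 0.02 and 0.05 in thymus embryos 1 to 5 (mean 0.04 ± 0.07, SD, n = 5). Tcf12 was at -0.15, 0.16, 0.15, 0.15 and 0.06 (mean 0.07 ± 0.13, SD, n = 5). Their fibroblast means were 0.05 ± 0.12 for Ikzf1 and -0.05 ± 0.06 for Tcf12 (SD, n = 5 each). For both, the near-zero means came from orientations of opposite sign. Ikzf1 lay above the pool on 9 of 9 thymus arrays with the hypomorph in Cy5 (mean 0.36) and below it on 8 of 9 with it in Cy3 (mean -0.28). Tcf12 lay above the pool on 9 of 9 (mean 0.38) and below it on 8 of 9, the remaining array being at 0.00 (mean -0.23). In fibroblasts both lay above the pool on all 10 Cy5 arrays, and in Cy3 Tcf12 lay below it on all 10 and Ikzf1 on 9 of 10.

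**Figure D2:**
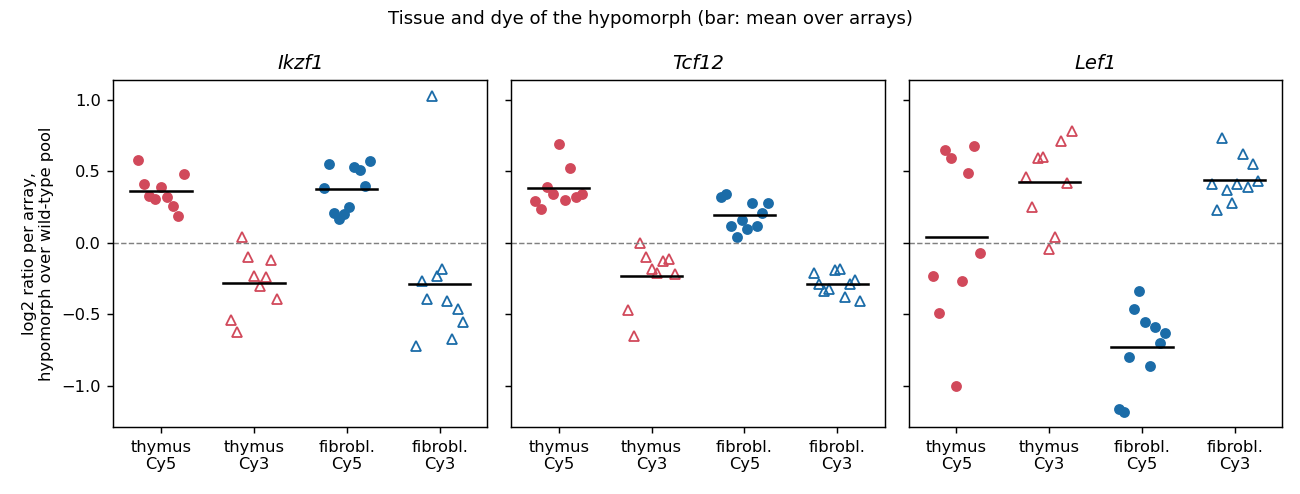
Log2 ratio of hypomorph over pool on every array (points) with the mean over arrays (bar), by tissue and by the dye that carried the hypomorph RNA, for Ikzf1, Tcf12 and Lef1. Ikzf1 and Tcf12 lie above 0 in Cy5 and almost all below 0 in Cy3 in both tissues, and Lef1 in fibroblasts lies below 0 in Cy5 and above 0 in Cy3.

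These opposite readings bound what 1 orientation alone can say. The mean difference between orientations was 0.64 for Ikzf1 and 0.61 for Tcf12 in thymus, against a median size of 0.29 over all features, and it was -1.17 for Lef1 in fibroblasts. In the Cy5 thymus arrays alone, 2 of 10 factors passed (Ikzf1 and Tcf12, limma adjusted p under 0.05; 22.1% of all features passed), and in the Cy3 arrays alone 2 others did (Lef1 and Id3; 23.8% of all). In fibroblasts 3 of 10 passed in Cy5 (Lef1, Ikzf1 and Tcf12; 28.4% of all) and 2 of 10 in Cy3 (Lef1 and Tcf12; 36.8% of all). No factor passed with the same sign in both orientations of a tissue.

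Id3, the inhibitor that binds E proteins such as HEB and keeps them off DNA, was at -0.12, -0.01, -0.23, 0.01 and -0.34 in thymus embryos 1 to 5. Its mean of -0.14 ± 0.15 (SD, n = 5; 0.908-fold) was the lowest of the 10 and had the smallest p among them in thymus (unadjusted p = 0.0634, limma adjusted p = 0.711). All 9 Cy3 arrays lay below the pool, and 5 of 9 Cy5 arrays lay above it. In fibroblasts Id3 was at 0.28, 0.19, -0.43, -0.02 and 0.15, with embryo 3 far below the others.

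Whether the embryos differed from each other was tested over arrays, with the dye as a covariate, an analysis added after the data were seen. The arrays of an embryo repeat the same RNA, so this test compares RNA samples and not conditions. In thymus 5 of 10 factors differed between embryos (limma F test, adjusted p under 0.05), where 11.6% of 21534 features did: Tox (adjusted p = 3.41e-07), Bcl11b (4.43e-05), Tcf7 (0.000249), Lef1 (0.0116) and Gata3 (0.0133). Runx3 (0.0684), Tcf12 (0.178), Id3 (0.422), Runx1 (0.660) and Ikzf1 (0.847) did not pass. With the values as deposited, without centring, 0 of 10 passed and 36 features in all did, and without embryo 2 only Tox, Tcf7 and Bcl11b did. Lef1 also missed the threshold without embryo 3 (adjusted p = 0.0850) and without the 3 arrays whose label lacks the genotype (0.0548), and Gata3 without embryo 1 (0.0535) or 4 (0.160). Runx3 passed without embryo 5 (0.0374). With arrays scaled to equal spread 7 of 10 passed, Runx3 (0.0148) and Tcf12 (0.0263) being added, and 4305 features in all did.

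The repeat arrays show what the test rests on. On the 8 arrays of embryos 2 and 4 Tox lay between 0.38 and 0.81, and on the 10 arrays of the other embryos between -0.89 and -0.19, in either dye orientation. Tcf7 was at 0.25, 0.76, -0.19, 0.94 and 0.43 in Cy5 and -0.69, 0.47, -0.44, 0.42 and -0.33 in Cy3. For Bcl11b the Cy5 means were -0.10, 0.52, -0.03, 0.51 and 0.18, and the Cy3 means -0.50, 0.20, -0.24, 0.26 and 0.06 (orientation means in embryos 1 to 5). Embryos 2 and 4 were thus the highest in both orientations for Tox, Tcf7 and Bcl11b. Lef1 was at -0.36, 0.62, -0.63, 0.58 and -0.06 in Cy5 and 0.35, 0.60, 0.00, 0.57 and 0.78 in Cy3, so its orientations were alike in embryos 2 and 4 and parted in embryos 1, 3 and 5. Gata3 was at -0.20, 0.25, -0.18, 0.33 and -0.48 in Cy5 and -0.22, 0.01, -0.12, 0.15 and -0.05 in Cy3, and parted most in embryo 5.

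**Figure D3:**
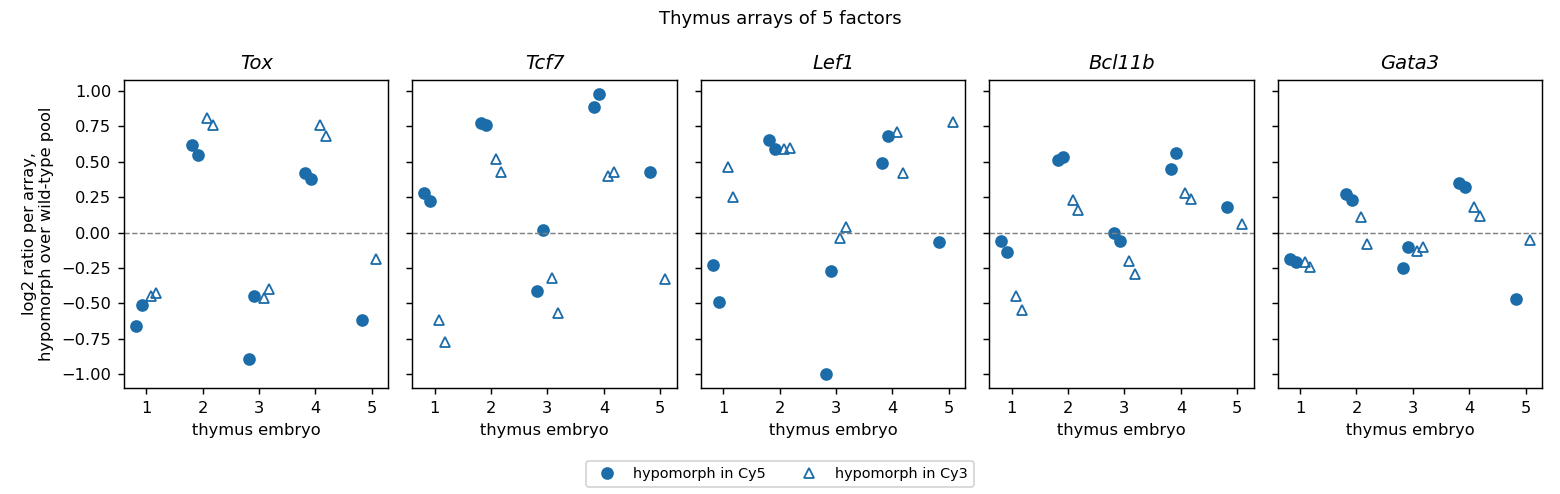
Log2 ratio of hypomorph over pool on each thymus array for the 5 factors that differed between embryos; filled circles have the hypomorph in Cy5 and open triangles in Cy3, and the horizontal axis is the embryo. For Tox all 8 arrays of embryos 2 and 4 lie above 0 and all 10 others below it.

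Embryos 2 and 4 were the highest for 6 of 10 factors in thymus (Tcf7, Lef1, Gata3, Bcl11b, Tox and Id3), and for 22.5% of all thymus features. They were the lowest for 1 of 10 (Runx3), and for 34.5% of all features. This pair was singled out after the values were seen, so these shares are a description and not a test. Id3 is counted although it did not differ between embryos (limma F test, adjusted p = 0.422). In Cy3 alone the highest embryo was embryo 1 for Id3, at -0.10, and embryo 5 for Lef1, at 0.78. Embryos 2 and 4 thus stood apart across the array and not for these factors alone. Their array medians as deposited were 0.98 to 1.14 in Cy5, above the -0.26 to 0.65 of embryos 1, 3 and 5, and -0.85 to -0.67 in Cy3, overlapping the -0.75 to 0.10 of those embryos. The part of these offsets in the result was not tested. Eif2s3y, the Y chromosome gene used for the direction, was at -3.43, 0.71, -0.40, 0.27 and -0.40 in thymus embryos 1 to 5, above the pool in embryos 2 and 4 only. The part of embryo sex in the values of the factors was not tested. In fibroblasts the same embryo numbers, which are different embryos, were the highest for 0 of 10 factors (7.83% of all features).

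In fibroblasts 2 of 10 factors differed between embryos, Id3 (adjusted p = 0.0152) and Runx3 (0.0249), where 17.3% of 21276 features did. Runx3 was at 0.07, -0.16, -0.23, 0.08 and 0.01 in fibroblast embryos 1 to 5. Without the 3 arrays that correlated below 0 with their embryo, 4 of 10 passed, with Tox (0.000573) and Gata3 (0.00861) added. These arrays were picked because they disagree with their own embryo. Leaving them out lowers the spread within embryos and so favours this test, and the added passes are no evidence of a difference. On the arrays of fibroblast embryo 4 Tox read 0.81, 0.51 and 1.00, and -0.60 on array 4. Without embryo 3 neither Id3 (0.617) nor Runx3 (0.241) passed, and 0 of 10 factors did. Runx3 also missed the threshold without embryo 2 (0.0626), 4 (0.0522) or 5 (0.0667). Gata3 passed without embryo 4 (0.0230) and Tox without embryo 1 (0.0441) or with arrays scaled to equal spread (0.0346), and with the values as deposited 0 of 10 passed.

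Genes around these factors were read for the same spread, from lists written with earlier results known. Against the pool none of them passed over all features in thymus. Of 28 measured other transcription factors of the T lineage, 4 had an unadjusted p under 0.05 (7.49% of all features). Patz1, a zinc finger factor that acts in the choice between CD4 and CD8 fates, was at 0.23 ± 0.14 (SD, n = 5; limma adjusted p = 0.375), Nr4a1, an orphan receptor induced by receptor signals, at -0.25 ± 0.17 (0.408), and Egr2, another immediate early factor, at -0.15 ± 0.12 (0.571). Between embryos 8 of these 28 differed, against 11.6% of all features. Myb, which supports thymocyte survival and proliferation, was at -0.35, 1.02, -0.53, 0.85 and -0.17 in embryos 1 to 5, highest in embryos 2 and 4 like Tcf7. Ets1, Ets2, Gfi1, Egr1 and Satb1 were named by the same rule, with spans of 0.84, 1.14, 0.63, 1.39 and 0.94, and all of them lay higher in embryos 2 and 4 than in embryos 1 and 3.

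Of 23 measured T cell and target genes 13 differed between embryos (11.6% of all features). Dntt, the polymerase that adds bases at receptor gene joints, had the widest span at -1.82, 0.62, -1.68, 0.20 and -1.29. Rag1, which cuts the receptor genes, was at -0.86, 0.70, -0.68, 0.74 and -0.53. Cd28, Cd2, Cd8a and Cd8b1, surface proteins of thymocytes, spanned 1.10, 0.78, 0.83 and 0.81. Against the pool, 1 of these 23 genes lay above it and 6 lay below it at an unadjusted p under 0.05 (limma). In either direction 7.49% of all features had such a p. The genes with the smallest p against the pool were Trat1, Cd3d and Cd247. Trat1, an adaptor at the receptor, lay below the pool in all 5 embryos (-0.39 to -0.17; mean -0.27 ± 0.09, SD, n = 5; limma adjusted p = 0.211), as did Cd3d, a receptor subunit (-0.26 to -0.15; mean -0.21 ± 0.04; 0.260), and neither differed between embryos. The share of all thymus features below the pool in all 5 embryos is not given here, so this sign is a description only. Cd247, the zeta chain of the receptor, was at -0.34 ± 0.29 (0.477) and did differ between them, highest in embryo 2 at 0.02 and lowest in embryo 1 at -0.72.

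By stage, 5 of 9 double positive genes differed between embryos, 2 of 7 single positive genes and 0 of 6 early double negative genes (1 at an unadjusted p under 0.05, limma), against 11.6% of all features and 25.6% at an unadjusted p under 0.05. Dntt, Rag1, Cd8a and Cd8b1 stand in both the double positive and the T cell list. The double positive median was -0.32, 0.31, -0.06, 0.11 and -0.23 in embryos 1 to 5, and the early double negative median 0.11, 0.10, -0.02, -0.03 and -0.02. Arpp21, a thymocyte gene of the double positive stage, was at -0.49, 0.36, -0.42, 0.11 and -0.29. Itm2a and S1pr1, linked to selection and to exit from the thymus, were the single positive genes that differed, with spans of 0.97 and 0.60. Ptcra, the partner of the early receptor beta chain, was at 0.11 ± 0.06, Rag2 at -0.11 ± 0.15, Cd69 at -0.22 ± 0.22 and Klf2 at 0.06 ± 0.09 (SD, n = 5 each), and of these 4 none differed between embryos. In embryos 2 and 4 Ptcra was at 0.09 and 0.03 and Rag2 at -0.09 and -0.13, not their highest values. Of the double positive list, Cd4 (-0.10, -0.06, 0.03, 0.04 and -0.09) and Cd1d1 (-0.16, 0.11, -0.06, 0.23 and -0.17) did not differ either. Whether the listed genes mark 1 stage only was not tested. The Notch genes Notch1 (0.11 ± 0.15), Dtx1 (0.11 ± 0.12) and Nrarp (0.05 ± 0.20) did not pass either test.

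Of the 13 factors of progenitors and other lineages, 0 differed between embryos (limma, adjusted p), 4 had an unadjusted p under 0.05 in that test (25.6% of all features), and against the pool 2 had an unadjusted p under 0.05 (7.49% of all features). They were Gata2, of early progenitors, at -0.13 ± 0.10, and Hoxa9 at -0.16 ± 0.14 (SD, n = 5 each). Lyl1 was at -0.11 ± 0.12. Of 28 measured relatives and partners of the factors 6 differed between embryos (11.6% of all features). Tle1, a Groucho corepressor, was at -0.23, 0.48, -0.15, 0.51 and -0.46, and Chd4, a remodelling ATPase that works with Ikaros, at -0.06, 0.70, -0.22, 0.71 and -0.11. In both, as for Tox, embryos 2 and 4 lay above the rest, and so did they for Tox4 (-0.11, 0.26, -0.19, 0.26 and -0.08). Ctnnb1 (beta-catenin) was highest in embryo 2 alone, at 0.54, Tcf7l2 was highest in embryo 1, at 0.31, and Tcf3, an E protein, highest in embryo 2, at 0.23. Tcf4 (-0.11 ± 0.08) and Ikzf5 (-0.11 ± 0.09) had the smallest p of this list against the pool after Gata2.

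**Figure D4:**
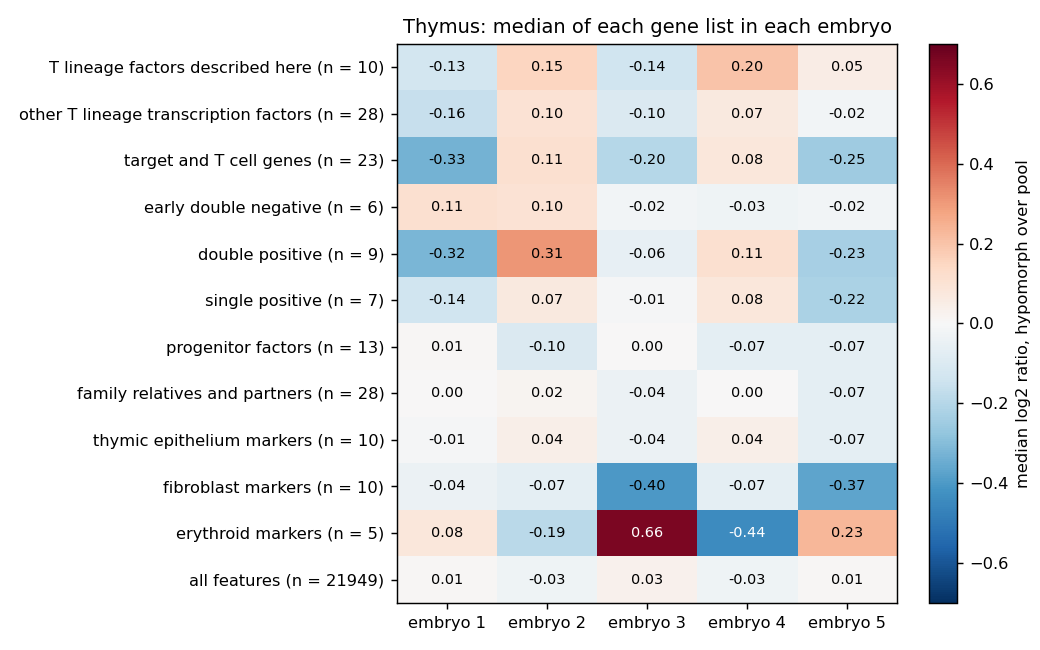
Median log2 ratio of hypomorph over pool of each gene list (rows, with the number of measured genes) in each thymus embryo (columns); red is above and blue below the pool. The 10 factors, the T cell genes and the double positive genes are higher in embryos 2 and 4 than in embryos 1 and 3, while the medians of progenitor factors stay between -0.10 and 0.01.

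Markers of other cells moved between the same embryos. The median of 11 measured thymocyte markers was -0.23, 0.18, -0.14, 0.05 and -0.17 in embryos 1 to 5, and that of 10 fibroblast markers -0.04, -0.07, -0.40, -0.07 and -0.37. The median of 5 measured erythroid markers was 0.08, -0.19, 0.66, -0.44 and 0.23, lowest in embryos 2 and 4. Its members were not alike: the globin genes Hba-a1 (-0.01, -0.88, 0.71, -0.85 and 0.19) and Hbb-b1 (0.11, -0.74, 0.66, -0.91 and 0.08) were lowest in embryos 2 and 4, as was Alas2, while Slc4a1, a red cell anion exchanger, was highest in embryo 2 at 0.72 and lowest in embryo 3, and Epb42 was highest in embryo 2 at 0.29 (Slc4a1 was named after its values were seen). Of the adipose and muscle markers, Adipoq, the adiponectin gene, was at -0.38, -1.27, -0.34, -1.23 and -0.49 and Car3, a carbonic anhydrase, at -0.47, -1.04, -0.34, -1.50 and -0.45, both lowest in embryos 2 and 4. Acta1, skeletal muscle actin, ran from -1.38 in embryo 3 to 1.69 in embryo 5. The myeloid markers S100a8 (-0.06, -0.63, -0.06, -0.84 and -0.72) and S100a9 (0.03, -0.69, 0.02, -1.08 and -1.32) were lower in embryos 2, 4 and 5 than in embryos 1 and 3. The median of 10 thymic epithelium markers stayed between -0.07 and 0.04, and that of 6 endothelial markers was 0.02, 0.14, -0.06, 0.16 and -0.06. The 2 epithelium markers that differed between embryos went opposite ways. Prss16 was at -0.20, 0.40, -0.30, 0.27 and -0.41, highest in embryos 2 and 4. Foxn1 was at -0.01, -0.28, 0.23, -0.10 and 0.05, lowest in embryos 2 and 4. Between embryos 5 of 11 thymocyte, 7 of 10 fibroblast, 3 of 5 erythroid, 2 of 10 thymic epithelium, 2 of 6 endothelial, 5 of 6 adipose and muscle and 2 of 7 myeloid markers differed (limma, adjusted p; 11.6% of all features). Of 4 B cell and 6 natural killer markers 0 differed, with 1 and 2 at an unadjusted p under 0.05 (25.6% of all features). Their part in the values of the 10 factors was not tested, and no marker has a level in ratio data.

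The genes whose embryo values lay closest to those of Tox, by root mean square difference over the 10 embryo values among 18148 genes, were Src (0.24), Tle1 (0.24), Dnajc7 (0.24), Herc3 (0.25) and Ccnd3 (0.25), where the median gene lay at 0.50. Src was at -0.32, 0.58, -0.30, 0.59 and -0.08 in thymus embryos 1 to 5. Dnajc7 was at -0.29, 0.64, -0.22, 0.55 and -0.30. Ccnd3 was at -0.28, 0.57, -0.20, 0.18 and -0.39.

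The difference between the tissues, thymus minus fibroblasts, passed for 0 of 10 factors (limma adjusted p under 0.05; 0.412% of 21852 features passed). For 1 of 10, Lef1, the unadjusted p was under 0.05 (15.4% of all features). Its ratio was 0.24 in thymus and -0.14 in fibroblasts, a difference of 0.39 with a 95% interval of 0.01 to 0.76 (unadjusted p = 0.0444, limma adjusted p = 0.312). The unadjusted p was at or above 0.05 in 9 of 12 alternatives, 0.0816 with the values as deposited and up to 0.111 on leaving out an embryo (thymus embryo 2). The dye orientations were not alike in this gap. With the hypomorph in Cy5 alone Lef1 was at 0.03 in thymus and -0.73 in fibroblasts, and in Cy3 alone at 0.46 and 0.44. The tissue difference was not tested within 1 orientation. Gata3 ran the other way, at -0.05 in thymus and 0.21 in fibroblasts, a difference of -0.26 (interval -0.53 to 0.00; adjusted p = 0.324). The narrowest intervals were those of Runx1 (-0.08 to 0.18), Ikzf1 (-0.15 to 0.15) and Tcf12 (-0.03 to 0.27), and the widest that of Tox (-0.65 to 0.59). Age differs with tissue here, so the 2 cannot be told apart.

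**Figure D5:**
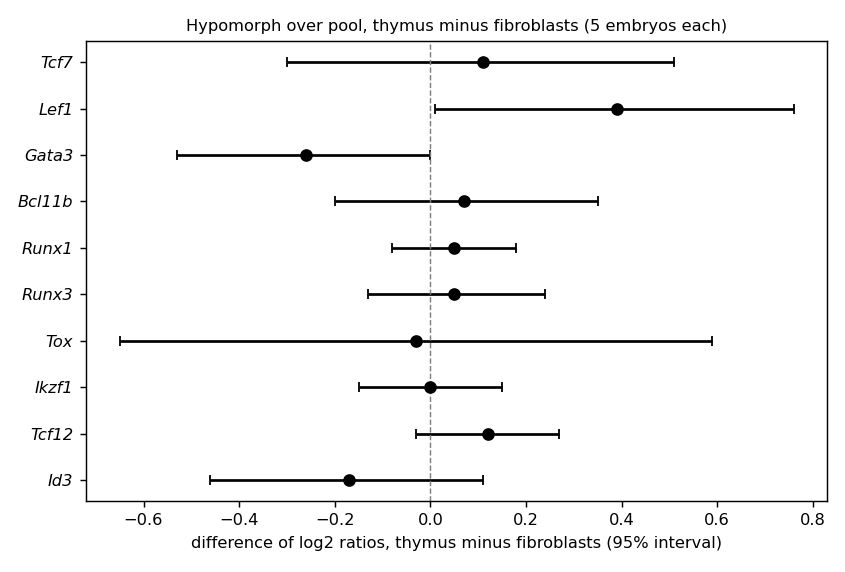
Difference of the mean log2 ratios (hypomorph over pool), thymus minus fibroblasts, for the 10 factors (points) with 95% intervals (bars), 5 embryos per tissue. The interval of Lef1 lies just above 0, that of Gata3 ends at 0.00, and the others span 0.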

How the data were processed

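The submitters set total RNA of single hypomorphic embryos against a wild-type pool on 2-colour arrays with dye swaps, read on an Agilent G2565AA scanner, per the labels' design text. They deposited log2 ratios for 25344 spots on each of 38 arrays. How spots were extracted, corrected for background or normalized was not stated in the sources used here, and scanner intensities were not used here. No value exceeds 16.61 (log2) in size. That upper limit was met 445 times on arrays with the hypomorph in Cy5 and 0 times on the others, and the lower limit 423 times on arrays with it in Cy3 only, which fits a sign already turned on one orientation. This alone allows hypomorph over pool, with Cy3 signal at a floor, or pool over hypomorph, with Cy5 signal at a floor. Hypomorph over pool was taken as likely from Eif2s3y.

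Values at a limit were treated as missing, and each array was centred on its median. Symbols came from the platform annotation, updated through RefSeq (17069 current, 3974 updated, 68 kept), and probes of a gene were averaged. An embryo's value is the mean of its Cy5 mean and its Cy3 mean. Tests used limma 3.58.1 in R 4.3.3 (lmFit, eBayes, two-sided, Benjamini-Hochberg over all features) on embryo values against 0, on thymus minus fibroblasts, and, added after the data were seen, between embryos over arrays. The fits were checked on simulated data. Arrays were correlated after removal of the dye profile. Of other lists, up to 6 genes that passed (by span) and up to 3 with the smallest p against the pool were named. The factors and all lists were chosen with earlier results of these data known. Embryo numbers of the tissues belong to different embryos and do not pair them (correlations of deviations -0.035 to 0.088). Promoter windows are RefSeq's, build GRCm38.p6. Depth has no counterpart here; the number of embryos limits the precision.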

Additional observations from a re-analysis of the deposited data

Results flagged for a closer look

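The check covered the 10 factors in both tissues and, in thymus, the genes of other lists named for the smallest p against the pool. Other named genes, such as those named only for differing between embryos, were not checked. Over the 40 sets of 5 embryo values checked, 3 had an embryo far from the others, all in fibroblasts. Chance alone flags about 1 in 20 such sets. Lef1 in fibroblast embryo 1 was at -0.42, where the other embryos lay between -0.11 and -0.04; its Cy5 arrays read -1.16 and -1.18 and its Cy3 arrays 0.41 and 0.23. Runx1 in fibroblast embryo 5 was at 0.13, above the other embryos at -0.08 to -0.05. Ikzf1 in fibroblast embryo 2 was at 0.26, above the others at -0.02 to 0.01, and this value rests on 1 array that read 1.03 where the repeat in the same orientation read -0.39.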

How the results depend on the processing

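Of 594 recomputed values of single factors 511 kept their sign and their side of the threshold. Against the pool, 0 of 10 factors passed in thymus under every alternative except 1 dye orientation alone (2 in Cy5, 2 in Cy3), and in fibroblasts likewise (3 in Cy5, 2 in Cy3). Of the 50 values whose sign turned, 23 came from leaving out an embryo, 14 from 1 orientation alone and 13 from other alternatives. With the hypomorph in Cy3 alone the thymus values were -0.12 for Tcf7, -0.05 for Bcl11b, -0.03 for Runx3, 0.09 for Tox, -0.29 for Ikzf1 and -0.23 for Tcf12, and the fibroblast values 0.44 for Lef1, 0.10 for Tox, -0.29 for Ikzf1 and -0.11 for Id3. In Cy5 alone the fibroblast values were -0.03 for Tcf7, -0.05 for Bcl11b, 0.00 for Runx1 and 0.20 for Tcf12. With embryo weights the values were -0.08 for Tcf7, -0.12 for Bcl11b, 0.00 for Ikzf1 and -0.03 for Tcf12 in thymus, where Lef1 was at 0.09 and Tox was at -0.35, and 0.03 for Tox in fibroblasts. Single probes gave -0.08 (Bcl11b probe 1, thymus), -0.01 (Runx1 probe 2, thymus) and 0.04 (Runx1 probe 1, fibroblasts). With values as deposited Tox was at 0.01 in fibroblasts and the tissue difference of Ikzf1 was 0.01. Without the thymus arrays whose label lacks the genotype Runx1 was at 0.00. Without the fibroblast arrays that correlated below 0 with their embryo, and without array 4 of embryo 4 alone (chosen after seeing the data), Tox was at 0.04. The cause of these changes was not tested.

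Leaving out each embryo in turn, the thymus means ran from 0.03 to 0.28 for Tcf7, 0.15 to 0.38 for Lef1, 0.01 to 0.18 for Bcl11b, -0.12 to 0.00 for Gata3, -0.03 to 0.05 for Runx3 and -0.23 to 0.08 for Tox. The fibroblast means ran from 0.00 to 0.02 for Bcl11b, -0.13 to 0.12 for Tox, -0.01 to 0.06 for Ikzf1 and -0.03 to 0.15 for Id3. The tissue differences ran from -0.02 to 0.23 for Tcf7, 0.00 to 0.17 for Bcl11b, -0.21 to 0.10 for Tox and -0.03 to 0.05 for Ikzf1. Between thymus embryos 3 to 6 factors passed on leaving out an embryo, 7 with arrays scaled to equal spread and 0 with values as deposited, where the offsets between arrays stay in the spread. Between fibroblast embryos 0 to 3 passed on leaving out an embryo, 0 with values as deposited and 3 with equal spread. Without the low-correlation arrays 4 passed, but that choice of arrays favours this test. Over all features, the counts called were 5 in thymus (0 to 5244 under the alternatives), 1 in fibroblasts (0 to 8145), 90 for the difference (1 to 379), 2501 between thymus embryos (36 to 4305) and 3673 between fibroblast embryos (238 to 6075). With the embryo number as a replicate block 0 of 10 factors and 1 feature in all passed for the tissue difference, and no factor's call changed. Signal over background is unknown, since the table holds ratios.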
